A study of Mus musculus with 28 samples.

Results

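The resistant cells, labelled Res, are a mouse lung adenocarcinoma line described as resistant to blockade of PD-1, the inhibitory receptor on T cells, and as treated with PD-1 inhibitors. Chromatin immunoprecipitation with sequencing (ChIP-seq) was done on 3 biological replicates for each of 2 acetyl marks of histone H3, H3K27ac and H3K9ac. The 6 Res samples are part of 28 in the series, and their 6 peak lists, of 24, held 102012 peaks and were merged wherever peaks overlapped by at least 1 base, which gave 23303 regions. A region counted as H3K27ac only when 3 of 3 H3K27ac and 0 of 3 H3K9ac libraries had a peak there (4707 regions, 20.2% of all), and as H3K9ac only in the opposite case (25 regions, 0.107%). It counted as carrying both marks when all 6 libraries had a peak there (10927 regions, 46.9%). The other 7644 regions had a mixed pattern, with 1 or 2 libraries of a mark.

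The other groups are Res_shFabp7 and Res_Ctrl, the resistant line with an shRNA knockdown of Fabp7 and its control, and Sen, the line sensitive to PD-1 blockade. Each has 3 libraries a mark. The Res and Sen cells are labelled wild type and as a cell line each, so the comparison is between 2 lines. Fixation was in 1% formaldehyde over 10 min in every group, and sequencing gave single-end 50-base reads. The labels give 53 to 158 M reads a sample, where M stands for 1000000. The sequenced input libraries were not used here.

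Acetylation of lysines in the tail of histone H3 loosens chromatin and is read by bromodomain proteins. H3K27ac is written mainly by the paralogous acetyltransferases p300 and CBP, at active promoters and at active enhancers, the distal elements that act on a gene from afar. H3K9ac is written mainly by the GCN5 and PCAF acetyltransferases and is best known from the nucleosomes just downstream of active transcription starts.

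The CpG content of promoters differed between the classes, so 5 windows are shown first. Each is the RefSeq window (assembly GRCm38.p6, the mm10 build) of 250 bases before to 50 after a transcription start that lay inside a region of the named class, given 5′ to 3′ on the gene's strand. Capitals mark CpG dinucleotides, the sites of DNA methylation, which are depleted over most of the mouse genome and kept in CpG islands. Tns3 (chr11:8664486-8664785, minus strand, 33 CpG) started in one of the strongest regions with both marks. Bsdc1 (chr4:129461429-129461728, plus strand, 17 CpG) led the genes with an H3K9ac excess in a region with both marks, and Hip1r (chr5:123973378-123973677, plus strand, 25 CpG) was among the 10 genes named for an H3K27ac excess. Slc13a2 (chr11:78422185-78422484, minus strand, 8 CpG) lay in a region with H3K27ac only, and Csf1 (chr3:107760420-107760719, minus strand, 16 CpG) in the strongest region with H3K9ac only.
Tns3: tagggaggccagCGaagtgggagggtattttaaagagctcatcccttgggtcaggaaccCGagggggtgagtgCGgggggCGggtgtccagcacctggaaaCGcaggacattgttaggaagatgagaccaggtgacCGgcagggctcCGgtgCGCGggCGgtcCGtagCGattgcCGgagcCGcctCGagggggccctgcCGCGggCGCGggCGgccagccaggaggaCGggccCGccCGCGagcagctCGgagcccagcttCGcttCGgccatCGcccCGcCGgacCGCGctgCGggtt
Bsdc1: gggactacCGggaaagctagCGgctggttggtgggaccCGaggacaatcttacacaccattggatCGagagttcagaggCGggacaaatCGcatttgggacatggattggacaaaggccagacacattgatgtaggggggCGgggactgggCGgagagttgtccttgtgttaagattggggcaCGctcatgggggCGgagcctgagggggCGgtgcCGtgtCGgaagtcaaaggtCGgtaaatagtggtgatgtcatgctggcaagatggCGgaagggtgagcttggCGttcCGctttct
Hip1r: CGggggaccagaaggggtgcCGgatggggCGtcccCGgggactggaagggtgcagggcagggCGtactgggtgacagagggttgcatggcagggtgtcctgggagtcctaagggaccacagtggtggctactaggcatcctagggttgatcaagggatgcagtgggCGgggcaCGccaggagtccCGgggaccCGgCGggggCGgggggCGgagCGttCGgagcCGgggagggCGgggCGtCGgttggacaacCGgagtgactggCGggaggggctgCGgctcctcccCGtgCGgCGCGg
Slc13a2: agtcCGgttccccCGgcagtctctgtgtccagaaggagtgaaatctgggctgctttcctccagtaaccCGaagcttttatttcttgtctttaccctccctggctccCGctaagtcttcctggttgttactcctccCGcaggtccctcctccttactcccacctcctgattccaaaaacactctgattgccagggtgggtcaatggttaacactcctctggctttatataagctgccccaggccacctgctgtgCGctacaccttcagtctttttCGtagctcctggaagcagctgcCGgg
Csf1: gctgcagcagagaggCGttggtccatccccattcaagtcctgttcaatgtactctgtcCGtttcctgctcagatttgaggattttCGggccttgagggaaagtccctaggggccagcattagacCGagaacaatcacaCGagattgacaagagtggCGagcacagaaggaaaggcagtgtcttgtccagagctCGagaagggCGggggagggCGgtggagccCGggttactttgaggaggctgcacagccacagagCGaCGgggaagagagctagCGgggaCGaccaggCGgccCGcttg

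In Res cells H3K27ac covered more places and more of the genome than H3K9ac, and a smaller share of its peaks lay at genes' ends. The H3K27ac libraries held 22252, 19811 and 19907 peaks, against 12684, 13576 and 13782 peaks in the H3K9ac libraries, so that every H3K27ac list was longer than every H3K9ac list. The mean was 20657 ± 1382 H3K27ac peaks and 13347 ± 584 H3K9ac peaks (SD, n = 3 each; exact permutation test, two-sided p = 0.1, the smallest that 3 libraries against 3 can give). The called peaks covered 58.6 ± 7.01 Mb for H3K27ac and 31.3 ± 2.21 Mb for H3K9ac (SD, n = 3 each; exact permutation p = 0.1). The median peak was 2347 ± 123 bases wide in H3K27ac libraries and 2107 ± 49.0 bases in H3K9ac libraries (SD, n = 3 each; exact permutation p = 0.1).

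A gene end here is either end of the annotated span of a protein-coding gene, and a region is at it when it lies within 1 kb. Of the H3K27ac peaks 44.4% ± 0.864 lay at a gene end, against 66.8% ± 1.76 of the H3K9ac peaks (SD, n = 3 each; exact permutation p = 0.1). The median number of sequence tags per peak was 204 ± 27.4 for H3K27ac and 202 ± 17.1 for H3K9ac (SD, n = 3 each; exact permutation p = 1), a difference smaller than the spread between replicates. In all, the peaks held 5.08 to 7.35 M tags in an H3K27ac library and 3.02 to 3.89 M in an H3K9ac library. Total reads per library are not given, so a mark's level is read relative to the other regions of its own library.

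The 3 classes lay in different parts of the genome. Of the H3K27ac-only regions 6.37% (300 of 4707, 95% Wilson interval 5.71 to 7.11, counting error only) were at a gene end, 45.9% inside a gene and 47.7% between genes. Of the 25 H3K9ac-only regions 20 were at a gene end (80%, interval 60.9 to 91.1), 1 inside a gene and 4 between genes. Of the regions with both marks 73.6% (8044 of 10927, interval 72.8 to 74.4) were at a gene end, 14.9% inside a gene and 11.5% between genes. The median distance to the nearest gene end was 25804 bases for H3K27ac-only regions, and the median region of the other 2 classes overlapped one.

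Some transcription starts with a RefSeq promoter window lie within the annotated span, and 586 of the 1624 both-mark regions inside genes were within 1 kb of such an inner start, as were 40 of the 2162 H3K27ac-only regions inside genes. With those counted, 7.22% of H3K27ac-only regions and 79.0% of regions with both marks were at an end or a start. The share with H3K9ac also differed between the types of gene end: of the 7135 regions with 3 of 3 H3K27ac peaks at an annotated start, 6911 (96.9%) had H3K9ac in 3 of 3 libraries, against 124 of 314 (39.5%) at the 3′ end of a gene with no start nearby. The 3′ ends were thus closer in this measure to regions inside genes (26.9% of 3680) and between genes (30.1% of 4101) than to starts. The count inside genes leaves out regions at an inner start, and both counts leave out some further regions.

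**Figure D1:**
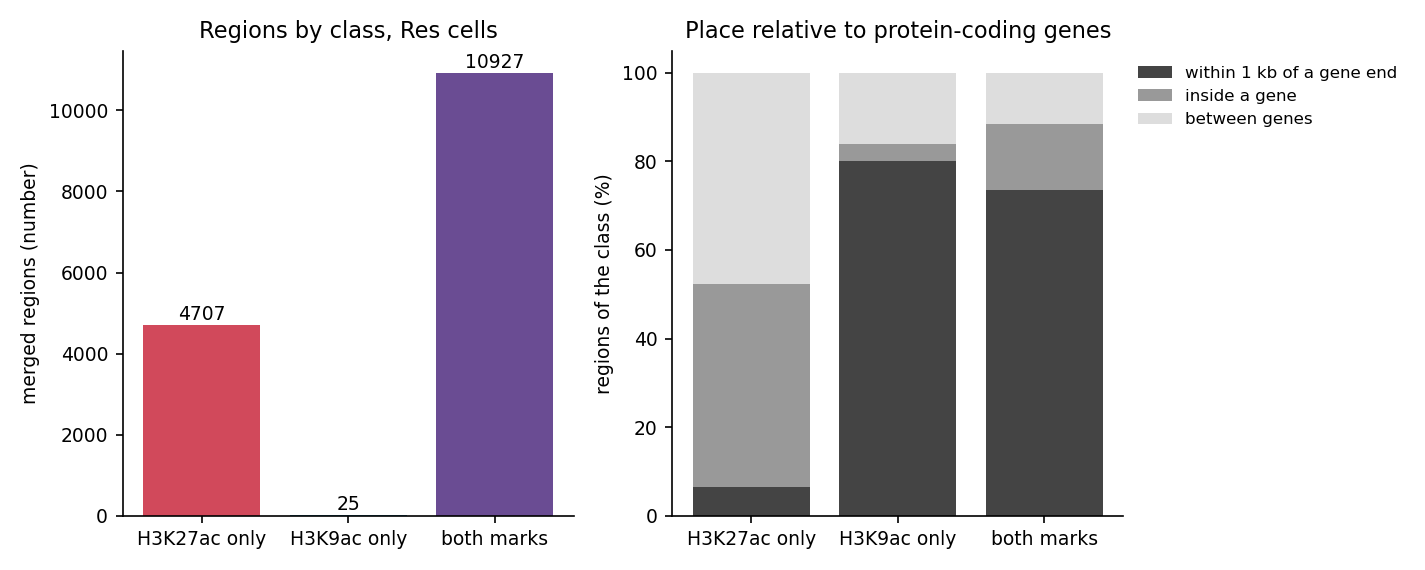
Left, the number of merged regions in Res cells by class; right, the share of each class (%) within 1 kb of a gene end, inside a gene and between genes. H3K27ac-only regions (4707) were at a gene end in 6.37% of cases, the 25 H3K9ac-only regions in 80%, and the 10927 regions with both marks in 73.6%.

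H3K27ac-only regions were narrower and less dense in tags than regions with both marks, though with peaks of p at most 1e-10 or lists of equal length they were the wider ones (3196 against 3144 bases and 3685 against 3387). Their median width was 2730 bases, that of H3K9ac-only regions 1402 bases, and that of regions with both marks 3010 bases. A both-mark region spans the peaks of 6 libraries and a region of 1 mark those of 3, which can widen the former. Within each H3K27ac library, the median called length was 2499, 2259 and 2197 bases in H3K27ac-only regions, against 2895, 2507 and 2492 with both marks. Within each H3K9ac library it was 1258, 1224 and 1225 bases in H3K9ac-only regions, against 2181, 2312 and 2379. Within the H3K27ac libraries, the median H3K27ac-only region held 77.5, 70.0 and 69.7 tags per called kb, against 118, 95.9 and 92.4 tags per called kb in regions with both marks, lower in each library. The ranges overlapped all the same: 12.6%, 19.3% and 18.9% of H3K27ac-only regions held more H3K27ac tags than the median region with both marks in the same library. The H3K9ac-only regions held few tags, with medians of 56.2, 57.0 and 63.1 H3K9ac tags per called kb, against 94.1, 104 and 110 in regions with both marks. The H3K27ac-only regions held 14.7% to 16.5% of all H3K27ac tags in peaks. Those with both marks held 70.5% to 71.9% of the H3K27ac tags and 94.2% to 96.7% of the H3K9ac tags.

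A peak list says nothing of tags below its threshold (p of at most 1e-05), so a weak region can lack a mark for want of tags. Regions with H3K27ac in 3 of 3 libraries were therefore set in 10 equal groups by H3K27ac level (CPM, tags scaled to 1000000 tags in both-mark regions of the library), a comparison added after the data were seen. In the group with the lowest level, 599 of 686 regions at a gene end (87.3%) also had H3K9ac in 3 of 3 libraries, against 83 of 505 inside genes (16.4%) and 51 of 528 between genes (9.66%). In the group with the highest level the shares were 98.7% of 852, 86.2% of 450 and 84.2% of 417. Away from gene ends the share was higher at the highest level than at the lowest, and in all 10 groups gene ends had the highest share. Grouped by tags per called kb, the lowest group had 67.1% at gene ends and 4.42% away from them. With lists of equal length, grouped by level as before, the lowest group had 97.8% at gene ends and 48.6% away from them.

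**Figure D2:**
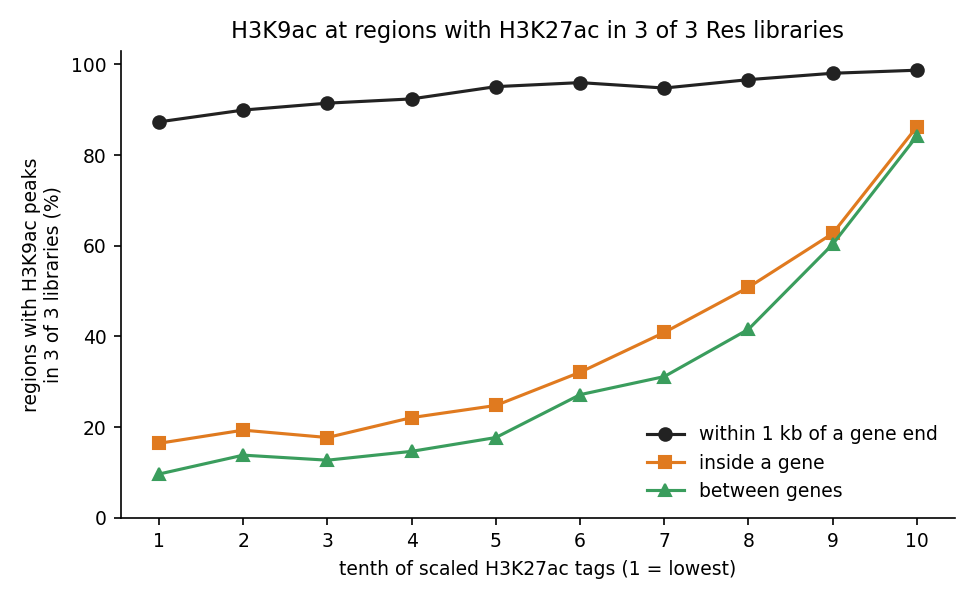
Share of regions with H3K27ac in 3 of 3 Res libraries that also had an H3K9ac peak in 3 of 3 libraries (%, vertical axis), by H3K27ac level in 10 equal groups, low to high (horizontal axis), for the 3 kinds of place. The line of gene ends runs from 87.3% to 98.7%, above regions inside genes (16.4% to 86.2%) and between genes (9.66% to 84.2%).

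The size of the small classes depends on how many peaks each list holds. When each list was trimmed to its 12684 strongest peaks, as many as the shortest list has, there were 1600 H3K27ac-only, 1543 H3K9ac-only and 8279 both-mark regions. Without H3K27ac replicate 1, the longest list, 295 regions were H3K9ac only, and without H3K9ac replicate 1 or 3 there were 62 or 41. With peaks of p at most 1e-10 the counts were 3859 H3K27ac only, 51 H3K9ac only and 8999 both marks. The count of 25 is therefore a count under the deposited thresholds, while the placement of H3K27ac-only regions away from gene ends held in each of these settings.

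The strongest regions with both marks at a gene end were broad. By the mean CPM of both marks, the 10 leading genes were Vmp1, Tns3, Tnnt2, Tnrc18, Nfib, Pmepa1, Krt80, Frmd8, Adamtsl4 and Tgif1, with regions 13936 to 54584 bases wide. Vmp1, which encodes an autophagy protein of the endoplasmic reticulum, had a region of 45949 bases that also holds Mir21a, a microRNA gene known to be high in many tumours. Its H3K27ac tags were 10067, 8350 and 7373, and its H3K9ac tags 4270, 4889 and 5040, and its mean H3K27ac level of 2048.5 CPM was the highest of all regions. Tns3, which encodes the focal adhesion protein tensin 3, had the widest region of all, with 9283, 7757 and 7676 H3K27ac tags and 2933, 3469 and 3530 H3K9ac tags. The list also held the transcription factor genes Nfib and Tgif1 (a repressor in TGF-beta signalling), Pmepa1 (a TGF-beta target that dampens the same pathway), Krt80 (an epithelial keratin) and, in the Adamtsl4 region, Mcl1 (an anti-apoptotic BCL2 relative).

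The strongest H3K27ac-only regions lay inside or between genes. The widest, 14967 bases inside Ergic1 on chr17 (an endoplasmic reticulum and Golgi protein gene), held 1210, 1123 and 995 H3K27ac tags, with no H3K9ac peak in any library. A region of 14735 bases inside Anxa2 (annexin A2, a membrane-binding protein) held 1329, 939 and 879, and a region of 13768 bases inside Fer1l6 held 1371, 1164 and 842. Regions inside Schip1 and Pacsin2 completed the 5 widest. These sums are above the H3K27ac median of regions with both marks (353, 249 and 236 tags), but in far wider regions. In the group with the most tags per called kb, 97.9% of regions away from gene ends had H3K9ac in 3 of 3 libraries. The most distant H3K27ac-only region lay 2040634 bases from a gene end, on chr14, with Olfm4 nearest, and held 208, 230 and 331 tags.

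Within 1 kb of an end, 10966 of 21900 protein-coding genes (50.1%) had a region, and 1366 (6.24%) had one of mixed pattern as their strongest. The strongest was an H3K27ac-only region at 183 genes (0.836%) and an H3K9ac-only region at 18 (0.0822%), against a region with both marks at 9399 (42.9%). The 10 strongest H3K27ac-only genes were Plekhm3, Lhx9, Lgr6, Nmnat2, Fbn1, Slc13a2, Ambp, Ccl2, Kcnab1 and Cnnm1. Plekhm3 had 890, 683 and 624 H3K27ac tags in a region of 8757 bases, with 0 listed for H3K9ac in all 3 libraries. Lhx9 (a LIM homeobox factor) had 845, 671 and 369, and Lgr6, a receptor for R-spondins that marks epithelial stem cells, had 596, 506 and 582. Ccl2, a chemokine that draws monocytes, had 582, 296 and 286, and Slc13a2, a carboxylate transporter whose sequence is shown above, had 552, 372 and 273. The Slc13a2 region held the start of its promoter window. For the other 9 regions, the nearest annotated start with a promoter window lay 261 bases away at Ambp and 9345 to 163203 bases away elsewhere. Of all genes 4431 have no such window, so these distances do not settle which end of a span a region touches. Some regions also touch a second gene (Kif12 with Ambp, Got1 with Cnnm1).

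H3K27ac-only regions also gathered inside some long genes. In all the spans of 1664 genes overlapped at least 1, and 24 overlapped 5 or more. Lpp, which encodes a focal adhesion LIM protein, held 7 in a span of 599 kb, and Tns1 (tensin 1) held 7 in a span of 214 kb. Longer spans have more room, and no test was made of these counts. The median H3K27ac-only region lay 30851 bases from the nearest region with both marks, and 25.6% lay within 10 kb of one.

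The 25 H3K9ac-only regions were mostly narrow and at genes' starts. Of these, 17 were within 1 kb of an annotated start and 5 were on the X chromosome (20%), against 0.446% of H3K27ac-only and 1.18% of both-mark regions on X. The 10 leading genes were Csf1, Fras1, Grhl1, Bend4, Nbdy, Samd5, Spata6, Pde3b, Evi5l and Atp7a. Apart from Csf1 these had 54 to 130 H3K9ac tags in a library. Grhl1, a grainyhead-like factor of epithelia, had 69, 66 and 130, and Atp7a, the copper-exporting ATPase on X, had 63, 74 and 72. The regions just outside the class were 62 with H3K9ac in 2 libraries and H3K27ac in 0, and 271 with H3K9ac in 3 and H3K27ac in 1, at medians of 65 and 84 H3K9ac tags, against 70 inside it. Of the 25 regions, 5 had an H3K27ac peak in none of the 9 libraries of the other groups (Ebf4, Bend4, Fras1 and the regions nearest Sox2 and Trim24), 15 in some and 5 in all 9 (Samd5, Exoc4 and the 3 at Csf1).

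Csf1 stood apart from the other H3K9ac-only regions. Csf1 encodes the macrophage growth factor M-CSF, and 3 of the 25 regions lay over or beside it on chr3. The region over its start (chr3:107755191-107761487) held 860, 964 and 1043 H3K9ac tags, and a region of 9210 bases over its 3′ end held 813, 855 and 836. No Res H3K27ac library listed a peak within 1 kb of the gene, although each listed peaks on both sides, the nearest ending at 107723305, 107730742 and 107720284 and starting again at 107765210, 107765147 and 107766504. All 9 H3K27ac libraries of the other groups had 2 or 3 peaks over the gene, with 1543 to 2552 tags in Res_shFabp7, 1488 to 1950 in Res_Ctrl and 792 to 2107 in Sen. The values were thus at 0 in 3 of 3 Res H3K27ac lists and far above it in 9 of 9 others. The cause was not tested.

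**Figure D3:**
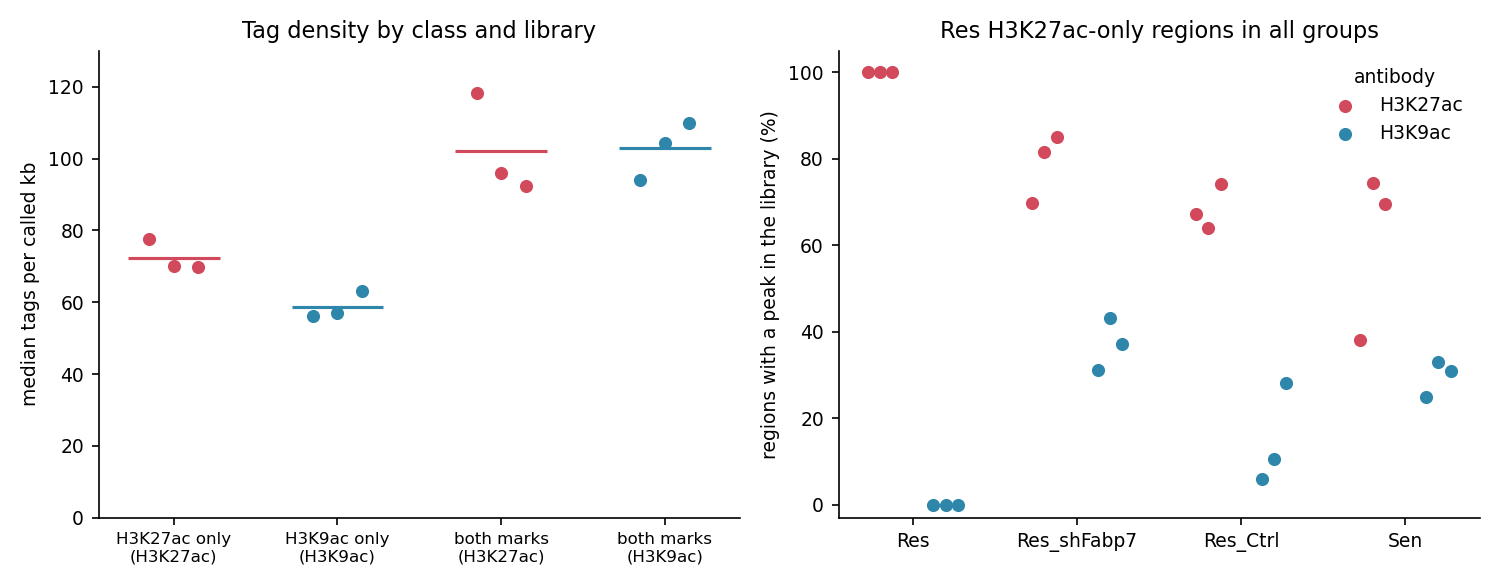
Left, median tags per called kb of the regions of each class in each Res library (points; lines are means of 3 libraries; antibody in brackets). Right, share of the 4707 Res H3K27ac-only regions with a peak in each library of each group (%): the H3K9ac points of the other groups lie between 5.95% and 43.2%, below the H3K27ac points of the same group.

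The classes were partly kept in the other groups, whose libraries the classification did not use. An H3K9ac peak was found at 37.2% ± 6.03 of the Res H3K27ac-only regions in Res_shFabp7 libraries, 14.9% ± 11.7 in Res_Ctrl and 29.6% ± 4.24 in Sen (SD, n = 3 libraries each). An H3K27ac peak was found at 78.8% ± 7.96 of them in Res_shFabp7 libraries, 68.5% ± 5.25 in Res_Ctrl and 60.7% ± 19.6 in Sen (SD, n = 3 libraries each). All 6 Sen libraries had a peak at 936 of the 4707 (19.9%), and 382 (8.12%) had H3K27ac only in Sen. In Res_Ctrl 237 (5.04%) had both marks and 1430 (30.4%) H3K27ac only. Regions with both marks in Res had both in 96.5% of cases in Res_shFabp7, 86.5% in Res_Ctrl and 88.6% in Sen. The H3K9ac lists of Sen replicates 2 and 3 held 10.2 and 11.5 M tags, against 3.02 to 3.89 M in Res, and Sen H3K27ac replicate 1 held 2.24 M. The part that these depths have in the class shares was not tested.

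CpG content differed between the classes. Of RefSeq promoter windows whose start lay in a region, those in H3K27ac-only regions (73 windows of 66 genes) had a median ratio of observed to expected CpG of 0.227 and 5 CpG per window. Windows in H3K9ac-only regions (17) had a median of 0.697 and 17 CpG, and windows in regions with both marks (9025 windows of 7572 genes) a median of 0.817 and 23 CpG. Windows with no peak in any Res library had 0.251, and all 21238 windows 0.567. No H3K27ac-only window passed a ratio of 0.6, against 82.4% of windows with both marks. The windows of Slc13a2 (0.381) and Tns3 (0.907) shown above are examples from each side, and Csf1 (0.644) was closer to the windows with both marks.

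Short motifs were counted on both strands of the same windows as a description. The TATA box letters TATAAA were in 10.96% of H3K27ac-only windows, 5.77% of windows with both marks and 12.6% of all windows. The AP-1 site TGANTCA was in 19.2% of H3K27ac-only windows (14 of 73), 4.29% of those with both marks and 6.99% of all. The Sp1 letters GGGCGG were in 20.5% of H3K27ac-only windows, 70.0% of those with both marks and 46.2% of all. The palindromic NRF1 motif was in 0 of 73 H3K27ac-only windows, 16.0% of those with both marks and 8.57% of all. The Sp1 and NRF1 letters contain CpG, so their shares move with CpG content. Windows with no peak in any Res library were near the H3K27ac-only windows in CpG ratio (0.251 and 0.227). In these no-peak windows the shares were 18.9% for TATA, 9.19% for AP-1, 24.8% for Sp1 and 2.38% for NRF1.

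**Figure D4:**
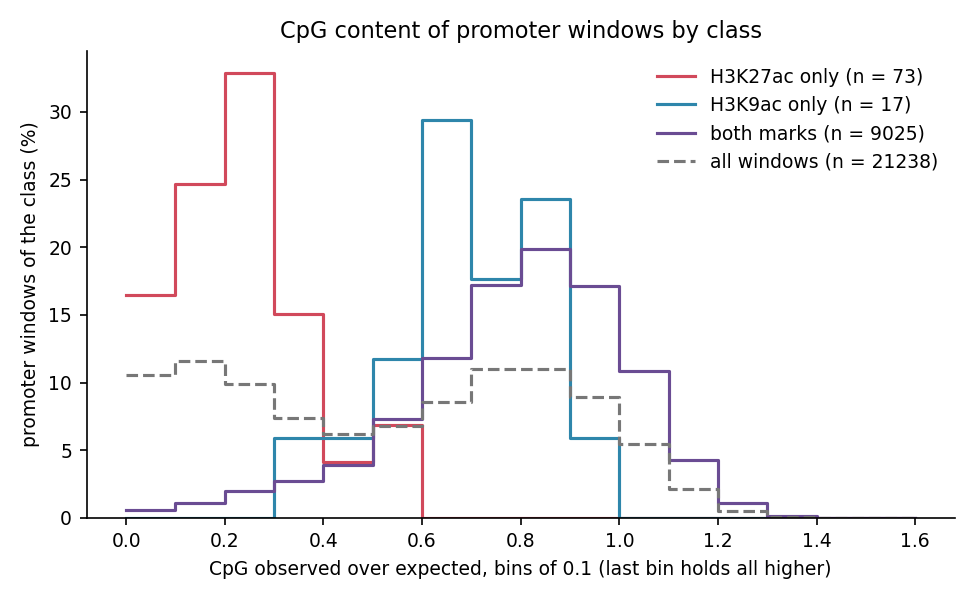
Share of promoter windows (%, vertical axis) by ratio of observed to expected CpG (horizontal axis, bins of 0.1) for windows whose start lay in a region of each class, and for all windows (dashed). The H3K27ac-only windows lie below 0.6 (median 0.227), while those with both marks have a median of 0.817.

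Within the regions that carried both marks, the balance between them also followed place. Tags of the 10927 regions were compared between the 3 H3K27ac and 3 H3K9ac libraries with edgeR's quasi-likelihood test, and p-values were adjusted over all regions by the Benjamini-Hochberg method. Since antibodies differ, a change is relative to the regions as a whole, and H3K27ac was relatively higher at 2995 regions (27.4%) and relatively lower at 1616 (14.8%), in all 42.2%, at an adjusted p under 0.05. The lower count was 1053 by DESeq2's Wald test and 960 to 1039 without H3K27ac replicate 2 or 3 or H3K9ac replicate 1 or 2. Between genes 79.7% of 1259 regions were higher and 0.477% lower, inside genes 58.7% of 1624 were higher and 5.67% lower, and at gene ends 12.9% of 8044 were higher and 18.9% lower. The median log2 ratio of H3K27ac to H3K9ac was 1.27 between genes, 0.69 inside genes and -0.11 at gene ends. With regions at an inner start and some further regions set aside, 81.0% of 989 regions inside genes were higher and 1.31% lower.

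Higher regions were wider in H3K27ac: the median called length was 4346 bases in H3K27ac libraries and 2312 in H3K9ac libraries, against 2390 and 2604.5 bases for lower regions. Per called base, 2562 regions were higher and 1460 lower, 3154 of the 4611 called regions passed the test again, and 282 had the other sign. The promoters of regions with relatively lower H3K27ac were the richest in CpG, with a median ratio of 0.892, against 0.673 for higher and 0.809 for regions not called.

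Among genes whose sign held per called base, the largest H3K27ac excess was at Dcun1d4 (a cullin neddylation factor). In CPM scaled by the trimmed mean of M-values (TMM), it had 250, 326 and 286 in H3K27ac libraries, against 15.2, 19.0 and 21.1 in H3K9ac libraries. The log2 ratio was 3.94 ± 0.14 (SE, edgeR adjusted p = 1.4e-07), and 0.96 per called base. Rgs5, a regulator of G protein signalling used as a pericyte marker, had 241, 315 and 290 against 33.5, 39.3 and 25.8 (log2 ratio 3.10 ± 0.15). Ecm1 (an extracellular matrix protein) had 264, 315 and 395 against 38.9, 31.7 and 53.2 (2.96 ± 0.19), and Pus10, whose region it shares with the NF-kappaB gene Rel, had 257, 340 and 315 against 62.3, 28.3 and 41.5 (2.80 ± 0.22). Pola2, H2-T24, Tmem184b (with the small Maf gene Maff), Hip1r, Them6 (with the prostate stem cell antigen gene Psca) and Tnfrsf26 followed at log2 ratios of 2.58 to 2.64. All 10 were called again per called base except Them6 (edgeR adjusted p = 0.21). Only the Hip1r region reached an annotated start with a promoter window, and the others lay 3883 to 324639 bases from one. Not every gene has such a window. Of all both-mark regions at a 3′ end with no start nearby, 74.2% of 124 were higher, against 12.1% of 6911 at a start. These excesses are therefore not read as a feature of the genes' promoters.

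Chosen in the same way, the largest H3K27ac deficits were smaller, and some lay at promoters of housekeeping genes. Bsdc1 had 28.3, 19.1 and 16.4 scaled CPM in H3K27ac libraries, against 40.4, 36.1 and 40.8 in H3K9ac libraries (log2 ratio -0.85 ± 0.19, SE, edgeR adjusted p = 0.0053). Ndufs5, a subunit of respiratory complex I, had 35.97, 20.03 and 18.6 against 36.8, 47.3 and 47.9 (-0.79 ± 0.23), and Snrpf, a core spliceosome protein, had 28.3, 20.6 and 20.2 against 41.4, 37.7 and 34.7 (-0.70 ± 0.16). The nuclear export factor gene Rae1 had 34.1, 32.0 and 32.5 against 49.3, 58.2 and 52.7 (-0.70 ± 0.12). Sgtb, Ndufb11, Zmynd19, Mycbp2, Vgll4 and Lin52 made up the 10, at -0.84 to -0.69. These 10 genes were picked by this difference in the same libraries, so a gap between the marks at them is no further support. Even so, the marks overlapped at Zmynd19 (25.9 to 45.1 for H3K27ac and 43.2 to 73.3 for H3K9ac). Per called base, 2 of the 10 passed the test, Ndufs5 and Rae1, and all kept the sign, as the rule for naming them asked. H3K27ac replicate 1 was the highest of its 3 libraries at all 10.

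**Figure D5:**
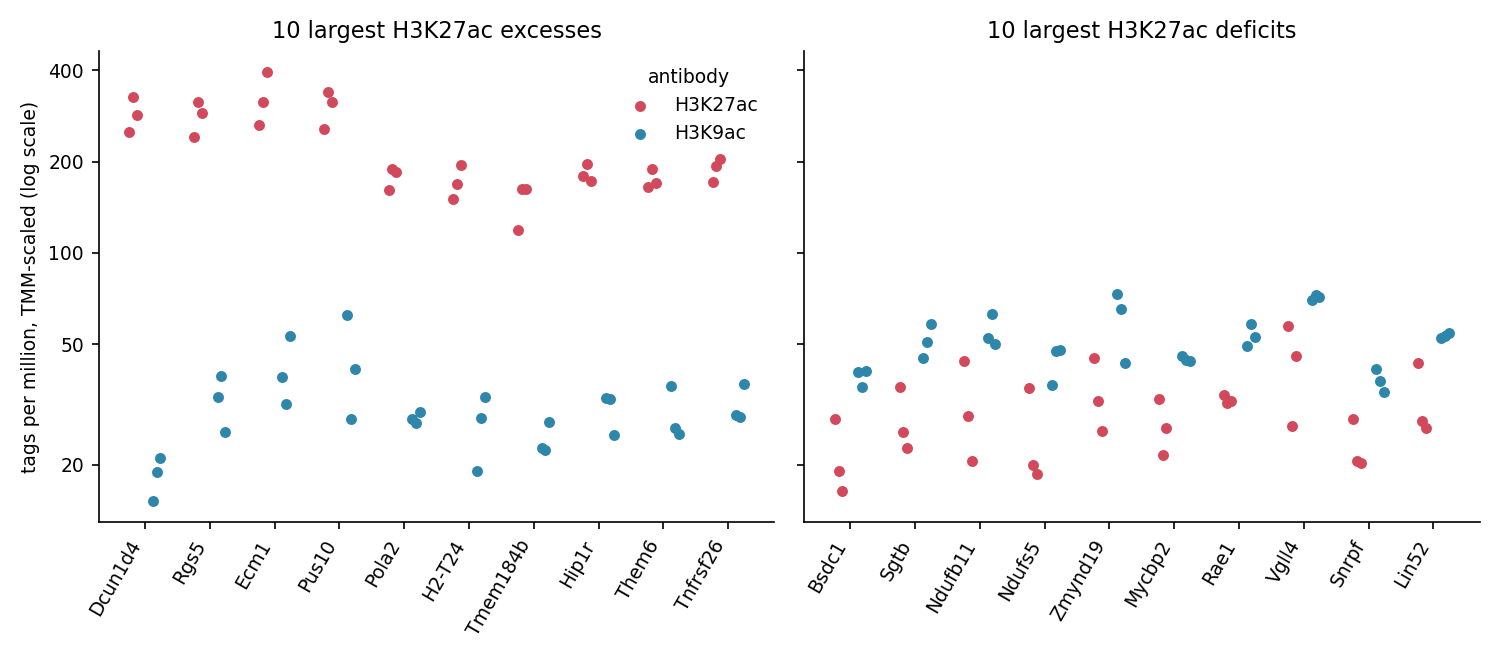
Scaled CPM (log axis) in each Res library at the 10 genes with the largest H3K27ac excess (left) and deficit (right), H3K27ac points left of H3K9ac points. At Dcun1d4 the H3K27ac libraries sit at 250 to 326 and the H3K9ac libraries at 15.2 to 21.1, while at Bsdc1 they sit at 16.4 to 28.3 and 36.1 to 40.8.

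Among the broad regions that led the both-mark class, Tns3 (log2 ratio 1.33 ± 0.10), Krt80 (1.08 ± 0.09), Vmp1 (0.87 ± 0.09), Tnnt2 (0.83 ± 0.08), Adamtsl4 with Mcl1 (0.71 ± 0.08) and Pmepa1 (0.51 ± 0.09) were relatively higher in H3K27ac. Tnrc18 (-0.07 ± 0.07), Nfib (0.07 ± 0.07), Frmd8 (0.22 ± 0.08) and Tgif1 (-0.04 ± 0.08) did not pass the test. When a trend of the ratio with tag level was removed, the ratio was -0.25 at Vmp1, -0.12 at Tnnt2, -0.08 at Adamtsl4 and -0.36 at Pmepa1, so the direction at these 4 depends on the scaling. In the same setting Tnrc18 (-0.99), Nfib (-0.81), Frmd8 (-0.58) and Tgif1 (-0.80) passed the test as lower, and Tns3 (0.29) and Krt80 (0.27) stayed higher.

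Over all 9399 genes whose strongest region at an end carried both marks, 12.5% were higher and 20.9% lower in H3K27ac, with a median log2 ratio of -0.12. Of 24 cytosolic ribosomal protein genes, all with both marks, 16 were lower and 1 higher (Rpl7, which did not keep its sign per called base), with a median of -0.27. Rplp0, of the ribosomal stalk, averaged 51.2 ± 1.15 scaled CPM for H3K27ac and 77.6 ± 9.46 for H3K9ac (SD, n = 3 each), and Rpl11 averaged 77.9 ± 6.70 and 114 ± 10.5. Of 20 tested genes of mitochondrial respiration 11 were lower and 1 higher (median -0.32), among the lower ones Uqcrfs1 (the Rieske protein of complex III, log2 ratio -0.52 ± 0.17) and Atp5b (a subunit of the ATP synthase, -0.40 ± 0.11).

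Cell cycle genes showed both directions, beside 12.5% higher and 20.9% lower over all 9399 tested genes. Of 22 tested, 8 were lower, among them the cyclin B1 gene Ccnb1 (46.7 ± 11.2 scaled CPM for H3K27ac and 67.3 ± 5.22 for H3K9ac), Mcm3 of the replicative helicase and Mki67, and 2 were higher, the D cyclin genes Ccnd1, which did not keep its sign per called base, and Ccnd3 (59.1 ± 1.67 and 30.9 ± 1.34 at Ccnd3). Of 18 tested genes of histone acetylation enzymes and readers 5 were lower, including both writers of H3K27ac, Crebbp (log2 ratio -0.60 ± 0.10) and Ep300, and the bromodomain gene Brd2, and 1 was higher (Kat8, 0.45 ± 0.15). The median of the list was -0.17, near that of all genes.

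Genes of epithelial identity and of cell contact fell on the other side. Of 18 genes for keratins, junctions and epithelial factors, which mark the labelled tumour type, 8 had both marks at an end, a share near that of all genes (42.9%), and 9 had no region at an end (Cldn3, Cldn4, Cldn7, Ocln, Tjp1, Esrp1, Grhl2, Ehf and Ovol1). Of the 8, 6 were higher in H3K27ac and 0 lower, against 12.5% and 20.9% of all 9399 tested genes. Cdh1 (E-cadherin) averaged 893 ± 95.1 scaled CPM for H3K27ac and 234 ± 16.8 for H3K9ac (log2 ratio 1.93 ± 0.10), and Krt8 averaged 617 ± 16.7 and 312 ± 14.7 (0.98 ± 0.07). Per called base these log2 ratios were smaller, at 0.50 for Cdh1 and 0.33 for Krt8. Of 18 lung lineage genes 9 had both marks and 4 were higher. The largest ratios were at Scgb1a1 (the club cell secretory protein, 1.91 ± 0.14, in a region shared with Ahnak) and Aqp5 (an alveolar water channel, 1.77 ± 0.10, in a region shared with Aqp2). Per called base their log2 ratios were 1.13 and 0.75. Nkx2-1, the lung lineage factor, and Sftpb had no region at an end in Res. Of 18 mesenchymal markers 8 had both marks and 2 had H3K27ac only (Col1a2 and Fbn1). The other 8 had no region at an end (Cdh2, Zeb2, Twist1, Acta2, Tagln, Col3a1, Tgfbi and Prrx1). Of the 8 with both marks 4 were higher and 0 lower, the higher ones being Snai1, S100a4, Col1a1 and Sparc. The S100a4 region also touches S100a3 and S100a5. Of 12 immune markers 10 had no region at an end, among them Ptprc (CD45), of 10 fibroblast and endothelial markers 8, and of 10 neural and glial markers 7. Among all 21900 protein-coding genes 10934 had no region at an end, and no test was made of these list counts.

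Lists of adhesion and early response genes had more higher than lower members, while 12.5% of all 9399 tested genes were higher and 20.9% lower. Of 16 tested integrin and matrix genes 5 were higher and 0 lower, among them Itga3 (an integrin alpha subunit, 348.5 ± 16.1 scaled CPM for H3K27ac and 199.99 ± 8.38 for H3K9ac) and Itgb4 (an integrin beta subunit, 257 ± 9.12 and 165 ± 6.996). Of 18 genes of the YAP and TEAD pathway, which senses cell contact and stiffness, 8 were higher, including the targets Amotl2, Axl and Ankrd1 and the factor Tead4, and 2 were lower, the kinase genes Lats1 and Lats2 that restrain YAP. Of 20 tested AP-1 and immediate early genes 7 were higher and 0 lower, among them Fosl1 (log2 ratio 0.88 ± 0.08), Btg2 (1.43 ± 0.13) and Junb (0.48 ± 0.07, and -0.17 with the trend removed). The Fosl1 region also touches Ccdc85b, and the Junb region Prdx2. Of 5 tested chemokines, cytokines and checkpoint ligands 2 were higher, Cxcl5 and Cxcl1, while Ccl2 and Ccl20 had H3K27ac only and Csf1 H3K9ac only. Of 11 tested genes of class I presentation and interferon 1 was higher (Ifngr1) and 1 lower (Tapbp, in a region shared with Rgl2). Per called base the sign was kept by 3 of the 5 higher integrin and matrix genes, 6 of the 8 YAP genes and 5 of the 7 AP-1 genes. Sparc, Amotl2, Itga3, Col5a1, Cxcl5 and Ifngr1 had a ratio below 0 per called base, so their direction depends on whether tags are counted per region or per called base.

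Lipid genes were mixed, and of all 9399 tested genes 12.5% were higher and 20.9% lower. The fatty acid binding protein Fabp7, which a hairpin in another group is named for, had no region within 1 kb of its ends in Res, and of the Fabp genes on the list only Fabp5 had one. Fabp5 had 49.9, 41.9 and 34.8 scaled CPM for H3K27ac, against 46.5, 44.7 and 42.5 for H3K9ac, and the groups overlapped (log2 ratio -0.07 ± 0.14, SE, edgeR adjusted p = 0.73). Of 9 tested genes of fatty acid binding, uptake and activation 3 were higher and 0 lower, Pparg (a fatty acid-activated nuclear receptor, 1.84 ± 0.11), Slc27a1 (a fatty acid transporter, 1.52 ± 0.22) and Acsl5 (an acyl-CoA synthetase, 0.90 ± 0.10). Of 14 tested suppressors of ferroptosis, a form of death by lipid peroxidation, 3 were higher, Scd1 (a fatty acid desaturase, 1.84 ± 0.13), Hmox1 (0.61 ± 0.21) and Gpx4 (the lipid peroxide reductase, 0.37 ± 0.08), and Slc3a2 was lower (-0.21 ± 0.07). Per called base the log2 ratio was 0.83 for Pparg, 0.55 for Scd1, 0.38 for Acsl5 and 0.29 for Hmox1, and Slc27a1 (0.20), Gpx4 (0.082) and Slc3a2 (-0.18) did not pass the test.

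The direction of the balance in Res recurred in groups that the test had not used. Of the higher regions with peaks in all 6 libraries of a group, 98.99% of 2776 in Res_shFabp7, 98.6% of 2179 in Res_Ctrl and 97.5% of 2552 in Sen had the same sign. Of the lower regions 96.0% of 1609, 95.3% of 1570 and 95.3% of 1559 did.

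A test of the difference in balance between Res and Sen, as an interaction of mark and cell line in edgeR over the 9628 regions with peaks in all 12 libraries, called few regions. The log2 ratio of H3K27ac to H3K9ac was higher in Res at 77 regions (0.8%) and lower in Res at 21 (0.218%), in all 1.02%. Ldha (lactate dehydrogenase A) had 84.0, 96.6 and 104.7 scaled CPM for H3K27ac in Res and 115, 122 and 130 in Sen, while H3K9ac was 17.6, 16.8 and 17.3 in Res and 61.9, 58.9 and 68.8 in Sen. The difference of the log2 ratios was 1.504 ± 0.15 (SE, edgeR adjusted p = 0.00065). Hhex, a homeobox gene, had 95.3, 91.2 and 95.4 for H3K27ac in Res and 421, 407 and 404 in Sen, and 118, 106 and 121 for H3K9ac in Res and 241, 273 and 281 in Sen (difference -0.92 ± 0.11, edgeR adjusted p = 0.0014). Both marks were lower in Res at Hhex, and H3K27ac by more. Per called base 18 regions were higher and 67 lower, and 2 of the 98 regions passed the test again. Without Res H3K27ac replicate 2 the counts were 33 and 7, and without Sen H3K27ac replicate 1 they were 106 and 63.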

How the data were processed

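ChIP-seq peak lists of H3K27ac and H3K9ac in Res cells (3 libraries each) were analysed, beside 18 lists of the other groups. Reads were aligned with Bowtie 1.1.2 to mm10 and peaks called with MACS 1.4.2, per the submitters' processing notes, separately for each library, since each sample has a list of its own. The deposited lists give the tag count of each peak (NumTags), a score that is the negative log10 of p times 10 (lowest value 50, a p of 1e-05) and a fold enrichment, the authors' ratio over background per the file headers, which was not used for any comparison. Counts are not scaled to reads.

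Overlapping peaks were merged, tags summed per region and library, and distances taken to the ends of 21900 protein-coding genes of RefSeq (GRCm38.p6). Lengths and shares are descriptions, and intervals cover counting error only. Library values were compared by two-sided exact permutation tests. The balance of the marks was tested with edgeR 4.0.16 (R 4.3.3; TMM, quasi-likelihood, Benjamini-Hochberg) on regions with a peak in all libraries of the test, so regions that lack a mark are outside it. On simulated data it recovered 60% of 1.5-fold and 99% of 2-fold changes in Res, and 28% and 84% for Res against Sen. The simulation changed only 100 regions at each fold, as many up as down. In the Res data 42.2% of regions were called, more of them higher than lower, so these rates may not hold there. The annotated starts, level groups and other groups were added after seeing the data. Other alternatives were DESeq2 1.42.0, a length offset, a level trend, stricter peaks and leaving out each library. Figures were drawn with Python 3.11.15 and matplotlib 3.10.9.

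Regions, lists and comparisons were chosen with earlier results of these data known. Named genes are, per class, the 10 with the strongest region within 1 kb of an end and the widest and farthest regions, in each test the 10 largest changes of either sign that keep it per called base, up to 4 called members per list with the largest change, and the Fabp genes. Other genes and regions named (Mir21a and the other microRNA genes, Exoc4, Ebf4, Litaf, genes with many H3K27ac-only regions, and list members given without a value) were picked after their values were seen. Replicates are labelled biological, with no source of separate cultures given, so p-values measure the spread between these samples. Whether replicate numbers pair the libraries is not settled. The deviations of same-numbered Res libraries correlated at 0.18, 0.042 and 0.28, and those of unlike-numbered ones at -0.226 to 0.066. The main tests used no pairing, and counts with a replicate block are given below. The 6 Res lists shared at most 0.0101% of their intervals, so each counted as a library of its own. A few named genes of the rule are not reported here.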

Additional observations from a re-analysis of the deposited data

Results flagged for a closer look

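The balance of the marks differed between Res and Sen, by the interaction test in edgeR, at 77 regions where the log2 ratio of H3K27ac to H3K9ac was higher in Res and 21 where it was lower. The named genes with a higher ratio in Res were Dcun1d4 (difference of log2 ratios 1.80), Ldha (1.504), 2900026A02Rik (1.13), Cpe (0.94), Msh6 (0.92), Spns2 (0.91), Spns3 (0.76), Pdgfb (0.72) and Trim46, whose region also holds Muc1 and Thbs3 (0.61). Those with a lower ratio in Res were Ggcx (-0.99), Hhex (-0.92), Fkbp1a (-0.83), Dedd (-0.72), Ap2a2 (-0.72), Copg1 (-0.71), Ets2 (-0.69), Pop1 (-0.63), Zfp532 (-0.63) and Isg15, with Agrn (-0.60).

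At Ldha and Pdgfb the H3K9ac values of Res and Sen did not overlap and were lower in Res by more than the H3K27ac values. At Cpe and Spns2 both marks were higher in Res, with H3K27ac at Spns2 of 159, 175 and 133 scaled CPM in Res and 29.8, 39.7 and 27.5 in Sen. At Isg15, an interferon-induced gene, both were lower in Res: H3K27ac 56.5, 55.6 and 49.7 in Res and 261, 290 and 261 in Sen, and H3K9ac 56.4, 59.97 and 66.4 in Res and 202, 195 and 206 in Sen. Of the 19 named genes, Ets2 alone passed the test per called base (edgeR adjusted p = 0.035). The part of called width and of the deep Sen H3K9ac lists in these calls was not tested.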

How the results depend on the processing

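The direction of the library values (number, coverage, width and place of peaks) was the same under every setting tried. With 3 libraries a mark, the exact permutation test cannot go below a p of 0.1, and peak lists hold no tags below their threshold. With peaks of p at most 1e-10, the median width was 3196 bases for H3K27ac only and 3144 for both marks, 7.90% and 77.5% lay at gene ends, 51 regions were H3K9ac only, and the CpG ratio of both marks was 0.827. With equal numbers of peaks there were 1600 H3K27ac-only and 1543 H3K9ac-only regions, the median widths were 3685 (H3K27ac only), 3387 (both marks) and 1656 (H3K9ac only), 72.4% of both-mark regions lay at gene ends, and their CpG ratio was 0.833. Within 5 kb of an end lay 16.4% of H3K27ac-only and 79.1% of both-mark regions, within 1 kb of a transcription start 2.40% and 63.2%, and with annotated starts added to the ends 7.22% and 79.0%.

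The share of H3K27ac regions with H3K9ac at the lowest of 10 levels away from gene ends was 13.0%, and it was 18.5% at p of at most 1e-10, 48.6% with equal numbers of peaks, 9.26% with annotated starts counted as ends and 4.42% by tags per called kb. At the highest level away from ends it was 85.2%, and 77.7%, 91.0%, 84.0% and 97.9% under those 4 settings. At gene ends at the lowest level it was 87.3%, and 97.8% with equal numbers and 67.1% by tags per called kb, where the highest level reached 100%. Leaving out 1 library gave 77.8% to 90.1% at ends and 8.55% to 16.2% away from them at the lowest level, and 84.6% to 87.7% away from them in the highest. It also gave median widths of 2447 to 2761 bases for H3K27ac only and 2858.5 to 3015.5 for both marks, 71.2% to 73.7% of both-mark regions at ends, and 26 to 295 H3K9ac-only regions.

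The count of regions with lower H3K27ac in Res (1616) was 1053 by DESeq2's Wald test and 960 to 1698 with 1 library left out: 980 without H3K27ac replicate 2, 1039 without H3K27ac replicate 3, 1030 without H3K9ac replicate 1 and 960 without H3K9ac replicate 2. The higher count stayed within 1.5 times. For Res against Sen (77 higher, 21 lower) DESeq2's Wald test gave 203 and 33 (2054 regions had no adjusted p), DESeq2's size factors 105 and 13, the level trend 118 and 16, the offset per called base 18 and 67, and p of at most 1e-10 36 and 11. Leaving out 1 library gave 33 to 126 higher and 7 to 63 lower, the lowest without Res H3K27ac replicate 2, the 126 without Res H3K9ac replicate 3 and the 63 without Sen H3K27ac replicate 1. The main tests did not pair libraries by replicate number. In Res, H3K9ac replicates 1 and 3 correlated best with the H3K27ac library of the same number, and H3K9ac replicate 2 with H3K27ac replicate 1. With a replicate block, 3131 were higher and 1847 lower in Res, and 196 higher and 28 lower in Res against Sen.

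Of 78 named genes called in the balance, 29 lost the call or changed sign per called base, 9 with the level trend, 3 by DESeq2, 18 when some library was left out and 0 with the block. The ratio turned negative with the level trend at Vmp1 (-0.25), Tnnt2 (-0.12), Pmepa1 (-0.36), Adamtsl4 (-0.079), Foxa1 (-0.39) and Junb (-0.17), and per called base at Sparc (-0.051), Amotl2 (-0.094), Itga3 (-0.048), Col5a1 (-0.16), Cxcl5 (-0.0026) and Ifngr1 (-0.14). The cause was not tested.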

Other observations

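Some microRNA genes lay in a region. Of 1003 annotated hairpins, 108 lay in regions with both marks, 11 in H3K27ac-only regions and 15 in regions with a mixed pattern. Of all regions 46.9% had both marks, 20.2% H3K27ac only and 32.8% a mixed pattern. By length, both-mark regions covered 41.6 Mb, H3K27ac-only regions 14.3 Mb and mixed ones 16.7 Mb, of 72.6 Mb in all regions. Hairpins of a cluster are counted separately, and Mir23a, Mir27a, Mir24-2 and Mir3074-2 share the same H3K27ac-only region. The region with both marks over Mir125b-1 on chr9 held 629 CPM for H3K27ac and 734 for H3K9ac, and the region over Mir15b and Mir16-2 held 318 and 355. Among the H3K27ac-only regions, the one over Mir23a on chr8 held 25.6 and the one over Mir206 on chr1 held 52.9 CPM.

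Far from genes, regions with both marks existed too. The most distant was 1213148 bases from a gene end, with Cited2 nearest, and held 367, 346 and 259 H3K27ac tags and 107, 113 and 107 H3K9ac tags. A region of 26889 bases on chr15, 45809 bases from Ppara, held 6515, 4632 and 4280 H3K27ac tags and 4086, 4833 and 5042 H3K9ac tags, among the highest of all regions for H3K9ac.

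Litaf, a gene of endosomal sorting, held an H3K9ac-only region 10013 bases from its ends, with 124, 112 and 117 H3K9ac tags in Res and H3K27ac peaks in 6 of 9 libraries of the other groups, of up to 1336 tags in Res_shFabp7.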
